A study of Mus musculus with 8 samples.

Results

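The genes described here are the platelet-derived growth factor (PDGF) ligands Pdgfa, Pdgfb, Pdgfc and Pdgfd, their receptors Pdgfra and Pdgfrb, and Gm16000, a non-coding gene that lies inside Pdgfc on the opposite strand. They were found by symbol and make up 7 of the 31053 genes measured, and all 7 were detected. The set was drawn up because Pdgfc and Gm16000 were lower in oligodendrocytes of mice without Ifnar1. It was thus chosen by the genotype values of oligodendrocytes, and these are given as a description without a test. The data are single nuclei RNA-seq (snRNA-seq) counts from the cortex of naive C57BL6J mice, each 6 weeks old, with 1 library per mouse. The groups were 4 wild-type mice (Wt, Ifnar1+/+) and 4 Ifnar1-/- mice, and each group held 2 females (F1 and F2) and 2 males (M1 and M2). Ifnar1 encodes a subunit of the receptor for type I interferons, and the mutation was carried in the germline, so every cell type of an Ifnar1-/- mouse carried it. The study asked how loss of this receptor alters the individual cell types of the brain.

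PDGFs are secreted growth factors that bind receptor tyrosine kinases on neighbouring cells. PDGF-A and PDGF-C signal mainly through PDGFRα, while PDGF-B also binds PDGFRβ and PDGF-D signals mainly through PDGFRβ. PDGF-C and PDGF-D are released in a latent form and need cleavage by a protease before they can bind. In the brain, PDGFRα marks oligodendrocyte precursor cells (OPCs), which depend on PDGF-A for survival and proliferation, and PDGFRβ marks pericytes, which cover the small vessels and are recruited by PDGF-B.

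Of 56780 barcodes, 54341 passed the filters and 52006 were kept after 2335 likely doublets were removed. The libraries held between 44063346 and 58423423 unique molecular identifiers (UMIs, each standing for 1 captured RNA molecule). Nuclei were assigned to classes by marker genes: 25626 glutamatergic neurons, 7548 GABAergic neurons, 1200 striatal projection neurons, 7085 oligodendrocytes, 212 newly formed oligodendrocytes, 453 OPCs, 162 astrocytes, 4386 microglia, 96 perivascular macrophages, 76 vascular and leptomeningeal nuclei and 5162 unnamed nuclei. Levels are UMIs per 1000000 UMIs of the class in a library (CPM), and means ± SD are over libraries with at least 10 nuclei of the class. The labels give the tissue as cortex, and the class with striatal markers was present in all 8 libraries. In 384 cases a barcode occurred in more than 1 library. Over all kept nuclei, Ifnar1 ranged from 16.2 to 19.9 CPM in Wt and from 13.9 to 16.9 CPM in Ifnar1-/- libraries. Among the 5 classes in which Ifnar1 passed the count filter, its difference was largest in microglia, with 42.4 to 62.1 CPM in Wt and 22.9 to 36.2 CPM in Ifnar1-/- libraries (log2 difference -0.81, SE 0.22; edgeR quasi-likelihood test, Benjamini-Hochberg adjusted p = 1.000). The libraries hold tags from the 3′ end, and tags outside the disrupted part of a gene do not check the genotype. Xist, which is transcribed in females, was at 825 to 1063 CPM in the 4 female libraries and at most 0.524 CPM in the 4 male libraries, as labelled.

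Pdgfc lies on chromosome 3 of the mm10 genome (chr3:81036416-81214040, plus strand) and spans 177625 bases. Gm16000 (chr3:81037408-81040437, minus strand) is annotated as an antisense gene of 3030 bases, and its lower end lies 992 bases inside Pdgfc, so it runs from the first intron of Pdgfc back into the first exon. Its single annotated transcript has 2 exons and a spliced length of 447 bases, of which 147 bases overlap the first exon of Pdgfc on the other strand. Unspliced RNA was counted, so all 3030 bases of Gm16000 lie within counted Pdgfc sequence. Reads from this stretch cannot be told apart without a strand rule. Sequences of both genes are shown because the pair carried the oligodendrocyte difference, and the parts shown leave out the overlap of exons. The first line is the 250 bases upstream of the annotated start of Pdgfc (chr3:81036166-81036415, plus strand, RefSeq, GRCm38.p6), with CpG dinucleotides in capitals. The second is the part of the Gm16000 transcript outside the Pdgfc exon (minus strand, GENCODE, GRCm38), with its first exon (chr3:81040388-81040437) in capitals and the following stretch of its second exon (chr3:81037555-81037804) in lower case.
Pdgfc upstream: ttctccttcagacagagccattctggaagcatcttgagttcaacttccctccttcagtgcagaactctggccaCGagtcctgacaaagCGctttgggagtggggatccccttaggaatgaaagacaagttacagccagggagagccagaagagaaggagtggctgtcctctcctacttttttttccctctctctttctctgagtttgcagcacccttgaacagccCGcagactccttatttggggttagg
Gm16000 transcript: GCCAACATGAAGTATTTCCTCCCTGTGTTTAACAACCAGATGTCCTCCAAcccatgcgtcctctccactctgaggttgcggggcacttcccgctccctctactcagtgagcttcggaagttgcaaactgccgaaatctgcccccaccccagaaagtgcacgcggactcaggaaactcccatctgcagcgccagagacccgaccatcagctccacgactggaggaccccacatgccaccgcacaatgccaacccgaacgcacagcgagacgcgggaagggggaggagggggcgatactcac
The Pdgfc window held 3 CpG dinucleotides and a GC content of 50.8%, against a median GC content of 52.4% over 32851 promoter windows of this length. The motifs searched, 3 in all, were sought on both strands, and a motif was counted whether or not it overlapped another. The core of the interferon response element (GAAANNGAA), which was in 7.13% of all windows, the interferon gamma activated site (TTCNNNGAA), in 7.02%, and the TATA box (TATAAA), in 12.4%, had no match in the Pdgfc window, which says only that these letters were not there. The windows of Pdgfra and both windows listed for Pdgfa also had no match to any of them, and that of Pdgfd had 1 match, to TATAAA. The Pdgfa windows held 19 and 28 CpG dinucleotides and a GC content of 66.4% and 72.4%, Pdgfra had 4 and 54.4%, and Pdgfd had 3 and 53.6%.

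In oligodendrocytes, the myelinating cells, Pdgfc was lower in Ifnar1-/- mice. The 4 Wt libraries had 136 (F1), 173 (F2), 127 (M1) and 142 CPM (M2). The 4 Ifnar1-/- libraries had 69.3 (F1), 60.1 (F2), 52.8 (M1) and 50.6 CPM (M2). The groups did not overlap, and the highest Ifnar1-/- library, F1, lay well under the lowest Wt library, M1. The means were 144 ± 19.7 CPM in Wt and 58.2 ± 8.45 CPM in Ifnar1-/- mice (SD, n = 4 each), so the mean of Ifnar1-/- libraries was 40.4% of that of Wt, and the fitted log2 difference was -1.31 (SE 0.18). Gm16000 was lower in the same libraries. Its Wt values were 51.6 (F1), 75.7 (F2), 41.2 (M1) and 48.6 CPM (M2), and its Ifnar1-/- values were 15.3 (F1), 10.7 (F2), 9.72 (M1) and 12.5 CPM (M2). Again the groups did not overlap, and Wt F2 was the highest library for both genes. The means were 54.3 ± 14.9 and 12.0 ± 2.43 CPM (22.1% of Wt), with a fitted log2 difference of -2.15 (SE 0.26). As background, CPM was lower in every Ifnar1-/- library than in every Wt library for 0.894% of the 11070 genes tested in oligodendrocytes. With edgeR at an adjusted p of 0.05, 0.0632% of them were called in either direction and 0.0361% were lower. These were the values that chose the set, so nothing is read from the comparison. The other genes called lower were Gm15446 (log2 difference -2.31) and Pkd1l2 (log2 difference -3.88). Pdgfa, the third member that passed the count filter there, had 41.7 ± 24.7 CPM in Wt and 41.5 ± 23.2 CPM in Ifnar1-/- oligodendrocytes (log2 difference -0.02, SE 0.43). The remaining 4 members were below the filter.

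**Figure D1:**
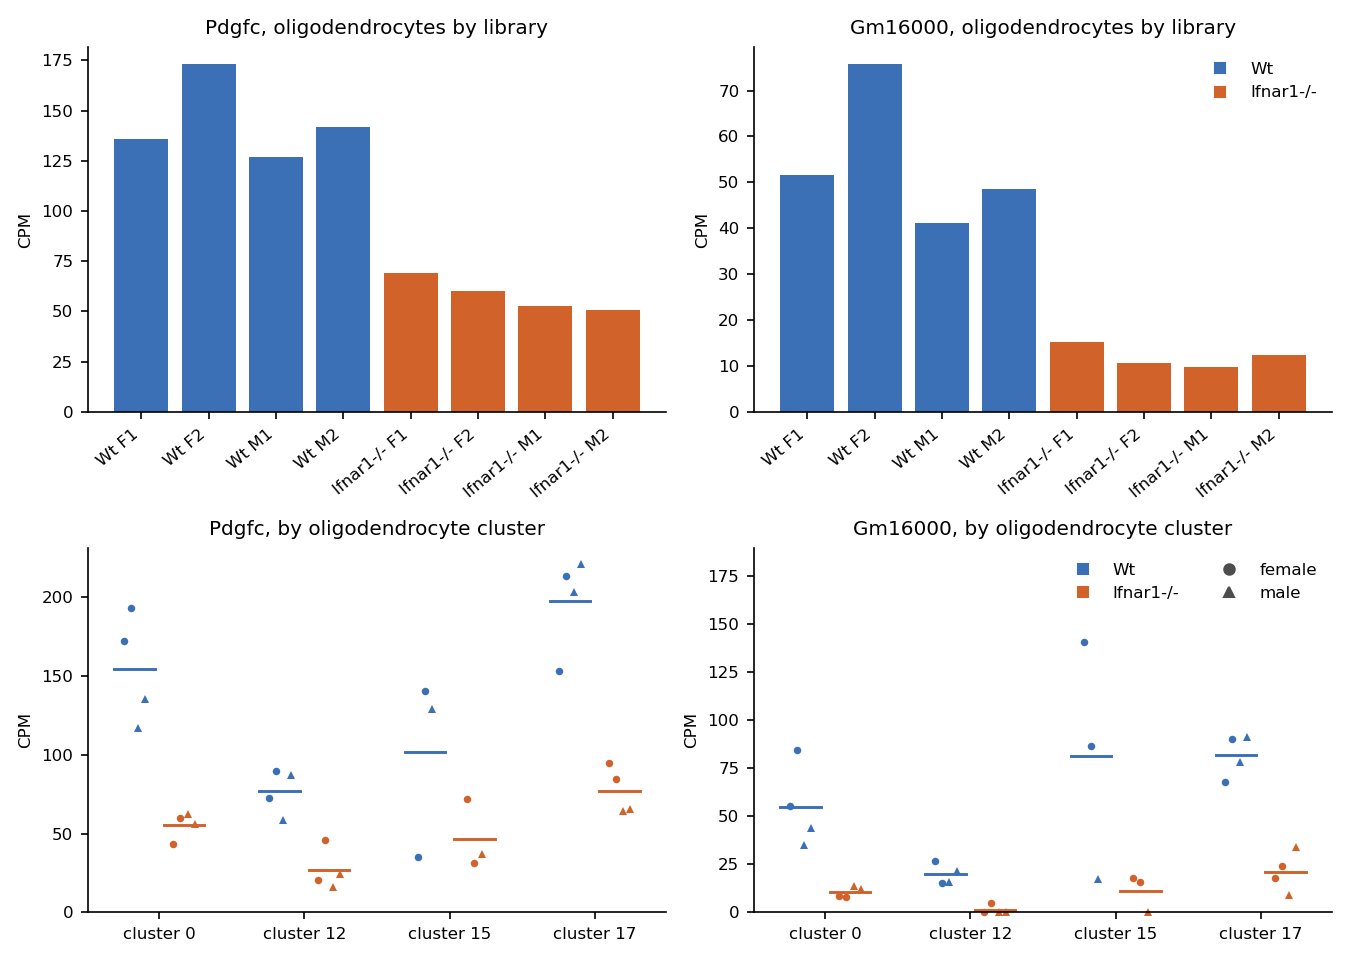
Pdgfc and Gm16000 in oligodendrocytes, in CPM. The upper bars give each library, and the lower points give each library in the 4 oligodendrocyte clusters, where it had at least 10 nuclei, with lines at the means; Ifnar1-/- libraries lie at 50.6 to 69.3 CPM for Pdgfc and Wt libraries at 127 to 173 CPM.

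The share of nuclei with a UMI comes from the same counts that chose the set, and it is given as a description. At least 1 Pdgfc UMI was found in 23.7% of Wt and 10.7% of Ifnar1-/- oligodendrocytes, with 17.7% to 30.3% and 9.45% to 15.2% per library. Microglia, in which few nuclei held the gene, give a background of 1.07% at a median of 1472 UMIs per nucleus, against 2055 in oligodendrocytes. When each nucleus was thinned to 1000 UMIs, the share was at least 11.0% in each Wt library and at most 6.22% in each Ifnar1-/- library. Summed marker genes of other cells were present in the oligodendrocyte class at low levels in both genotypes. The 7 glutamatergic markers summed to 113 to 239 CPM in Wt and 77.4 to 339 CPM in Ifnar1-/- libraries, the 9 astrocyte markers to 222 to 305 and 236 to 500 CPM, and the 9 microglial markers to 112 to 183 and 106 to 159 CPM, with none of these markers at 0. The 10 oligodendrocyte markers summed to 26465 to 36295 CPM in Wt and 26804 to 33375 CPM in Ifnar1-/- libraries. The part of these other cells in the difference was not tested.

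The oligodendrocytes formed 4 clusters, which differed in their Pdgfc level. Pooled over libraries, cluster 17, led by Mobp, Opalin and Mal, was highest at 147 CPM, ahead of cluster 0 at 104 CPM. Cluster 17 had 153, 213, 203 and 221 CPM in Wt F1, F2, M1 and M2 and 94.4, 84.8, 64.5 and 65.3 CPM in the same order of Ifnar1-/- mice. Cluster 0, led by Ptgds, had 172, 193, 117 and 135 CPM in Wt and 43.2, 59.8, 62.3 and 56.3 CPM in Ifnar1-/- libraries. Cluster 12, in which Enpp6 and Hapln2 were among the leading genes, had 72.7, 89.3, 58.4 and 87.3 CPM in Wt and 20.6, 45.6, 16.3 and 24.2 CPM in Ifnar1-/- libraries. In each of these 3 clusters the genotypes did not overlap. The clusters divide the same oligodendrocyte UMIs that chose the set, so this is a description and not added support. The share of all genes without overlap in each cluster is not given. The fourth, cluster 15, took 818 of its 1158 nuclei from Ifnar1-/- F1, and only there did the genotypes overlap, with Pdgfc at 35.2, 140 and 129 CPM in Wt F1, F2 and M1 and at 71.6, 31.4 and 37.0 CPM in Ifnar1-/- F1, F2 and M2. Several of its libraries rest on few nuclei, with 15 in Wt F1 and 17 in Ifnar1-/- M2, and Wt M2 and Ifnar1-/- M1 had 4 each. For Gm16000 in cluster 17, the Wt libraries had 68.1 to 91.4 CPM and the Ifnar1-/- libraries 9.22 to 33.9 CPM. In cluster 12, Gm16000 had no UMI in 3 of the 4 Ifnar1-/- libraries and 4.80 CPM in the fourth, F2, against 15.5 to 27.0 CPM in Wt.

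The ratio of the overlapping genes in oligodendrocytes is built from the values that chose the set and is a description. For every 100 Pdgfc UMIs there were 36.9 Gm16000 UMIs in Wt and 21.3 in Ifnar1-/- oligodendrocytes. By library the ratio was 38.0, 43.9, 32.4 and 34.2 in Wt F1, F2, M1 and M2, and 22.0, 17.8, 18.4 and 24.7 in the Ifnar1-/- libraries. In glutamatergic neurons it was 31.4 (95% exact interval 30.0 to 32.8, counting error only) in Wt and 29.9 (28.6 to 31.3) in Ifnar1-/- mice. By library the glutamatergic ratio ranged from 27.2 to 38.3 in Wt and from 23.6 to 39.6 in Ifnar1-/- mice, beyond these intervals. Over both genotypes it was 23.2 in GABAergic neurons, 27.6 in striatal neurons, 31.0 in OPCs and 12.0 in microglia. Nuclei with a Gm16000 UMI more often held a Pdgfc UMI than other nuclei did. The shares were 46.3% against 21.1% in Wt oligodendrocytes, 25.6% against 10.4% in Ifnar1-/- oligodendrocytes, 67.8% against 25.7% in Wt glutamatergic neurons and 70.6% against 27.0% in Ifnar1-/- glutamatergic neurons. These shares are over nuclei of differing depth, and the sources used here do not give the strand setting of the counting, so reads from the pair may be shared.

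Outside oligodendrocytes, no difference between genotypes passed the test for any member. In glutamatergic neurons Pdgfc was at 54.8, 61.8, 72.1 and 59.3 CPM in Wt F1, F2, M1 and M2 and at 65.6, 83.4, 71.3 and 69.4 CPM in Ifnar1-/- F1, F2, M1 and M2. The Ifnar1-/- values were on the high side, opposite to oligodendrocytes, but overlapped with those of Wt. The means were 62.0 ± 7.33 and 72.4 ± 7.67 CPM, with a log2 difference of 0.24 (SE 0.11; edgeR adjusted p = 1.000). In GABAergic neurons the log2 difference of Pdgfc was 0.39 (SE 0.24) and in striatal projection neurons it was 0.22 (SE 0.23). Gm16000 had a log2 difference of 0.21 (SE 0.20) in glutamatergic and 0.62 (SE 0.40) in GABAergic neurons, again without passing the test. Whether the genotype difference itself differed between oligodendrocytes and neurons was not tested, since the oligodendrocyte values chose the set.

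The smaller glial classes held too few Pdgfc UMIs for the count filter, and their values are given without a test. OPCs had 55.2, 57.7, 92.9 and 46.8 CPM in Wt F1, F2, M1 and M2 and 14.7, 59.7, 11.8 and 34.2 CPM in the Ifnar1-/- libraries, from 1 to 19 UMIs a library. Newly formed oligodendrocytes, the stage between precursor and myelinating cell, had 24.0, 42.3 and 9.10 CPM in Wt F2, M1 and M2 and 53.3, 49.6, 48.5 and 68.8 CPM in the 4 Ifnar1-/- libraries, from 1 to 10 UMIs. Astrocytes had 46.5, 50.5 and 52.8 CPM in Wt F1, M1 and M2 and 154, 53.3 and 102 CPM in Ifnar1-/- F1, F2 and M2. In OPCs the genotypes overlapped. In the other 2 classes the values of Ifnar1-/- libraries were higher among the libraries used, but in astrocytes the nearest, 53.3 and 52.8 CPM, rest on 2 UMIs each. The share of all genes separated in this way is not given for these classes. With the libraries left out counted as well, the genotypes overlapped in both classes. The libraries left out for having under 10 nuclei were Wt F1 for newly formed oligodendrocytes, at 110 CPM from 4 UMIs, and Wt F2 and Ifnar1-/- M1 for astrocytes, at 160 CPM from 3 UMIs and at 0.

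In all, 18 pairs of a member and a class outside oligodendrocytes passed the count filter, and edgeR called none of them, none had an unadjusted p below 0.05, and DESeq2 called none. All 7 members were tested in the glutamatergic class, 5 in the GABAergic class, 2 in striatal neurons, 2 in microglia and 1 each in OPCs and newly formed oligodendrocytes. Between genotypes, edgeR called 0.0596% of all tested genes in the glutamatergic class, 0.0266% in the GABAergic, 0.0333% in the striatal and 0.105% in the microglial class, and it was 0 in newly formed oligodendrocytes, OPCs, astrocytes and perivascular macrophages. Perivascular macrophages were fitted without Wt F1 and Ifnar1-/- F1, which had too few nuclei.

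**Figure D2:**
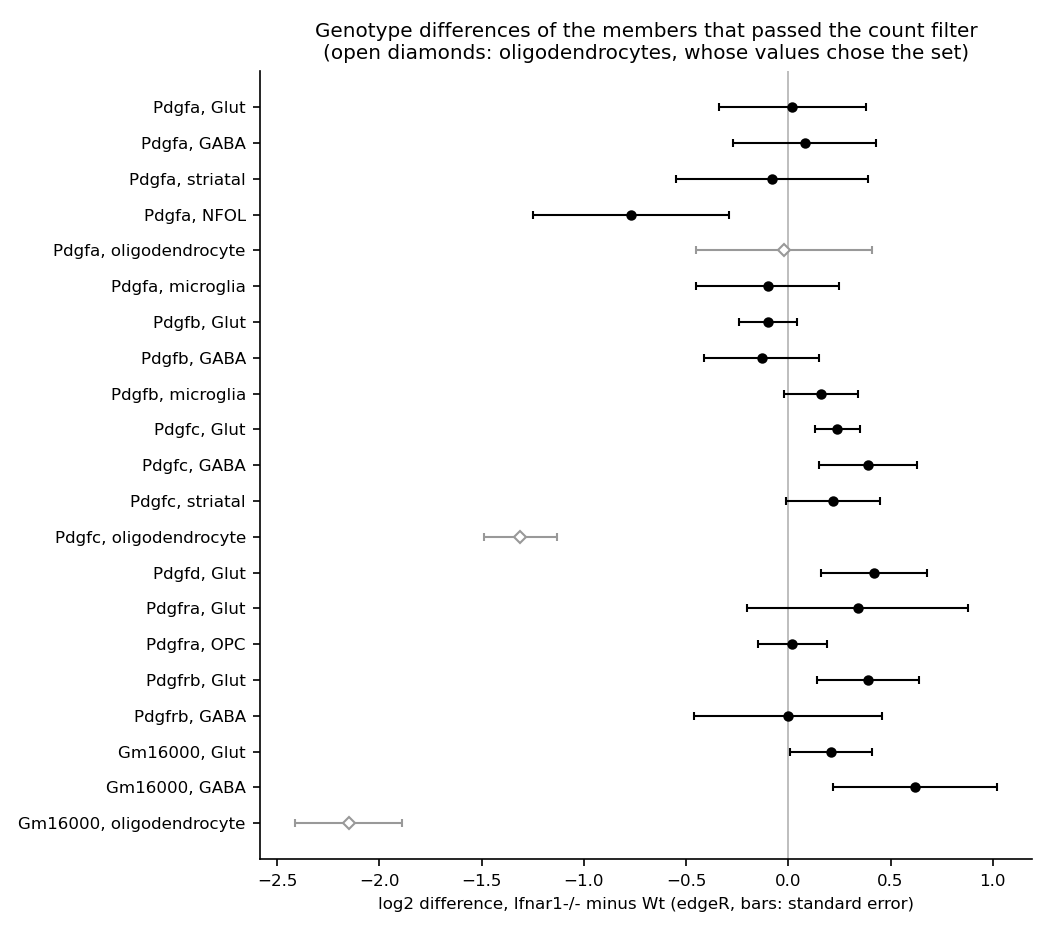
Log2 differences between Ifnar1-/- and Wt mice (x axis) for each member and class that passed the count filter (y axis), with bars of 1 standard error; open diamonds are oligodendrocytes, and class names are shortened (Glut, glutamatergic; GABA, GABAergic; NFOL, newly formed oligodendrocyte). Outside oligodendrocytes the differences lie between -0.77 and 0.62, and in oligodendrocytes Pdgfc is at -1.31 and Gm16000 at -2.15.

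Among the other ligands, Pdgfb was highest in microglia. Its microglial values were 164, 156, 143 and 142 CPM in Wt F1, F2, M1 and M2 and 223, 180, 146 and 143 CPM in the Ifnar1-/- libraries, and 20.1% of microglia held a Pdgfb UMI against 0.649% of oligodendrocytes, at median depths of 1472 and 2055 UMIs. The genotypes overlapped (log2 difference 0.16, SE 0.18), and Ifnar1-/- F1, the highest library, had only 156 microglia. Glutamatergic neurons followed among the large classes with 20.7 ± 3.12 CPM, above striatal neurons at 13.1 ± 5.11, GABAergic neurons at 6.28 ± 1.85 and oligodendrocytes at 2.74 ± 1.35 CPM (SD, n = 8 each). Genotype differences of Pdgfb were -0.10 (SE 0.14) in glutamatergic and -0.13 (SE 0.28) in GABAergic neurons on the log2 scale. Pdgfa was highest in newly formed oligodendrocytes, at 121 ± 67.3 CPM (n = 7), followed by oligodendrocytes at 41.6 ± 22.2 CPM and, among the other large classes, microglia (27.2), glutamatergic (25.6), GABAergic (24.1) and striatal neurons (16.4). Its level in OPCs, the cells that carry its receptor, was 12.4 ± 12.9 CPM. Pdgfa genotype differences ranged from -0.77 (SE 0.48) in newly formed oligodendrocytes to 0.08 (SE 0.35) in GABAergic neurons.

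Pdgfd was near the counting limit in most classes. It was at 0.443 ± 0.108 CPM in glutamatergic neurons and at most 2.01 CPM in the other large classes, with 11.0 ± 9.53 CPM in OPCs. Astrocytes had 44.3 ± 58.2 CPM (n = 6), of which Wt M2 at 158 CPM from 6 UMIs was the highest, and the mean without it was 21.4 CPM. The 76 vascular and leptomeningeal nuclei, pooled over libraries, had 163 CPM from 29 UMIs. One GABAergic cluster of 90 nuclei, cluster 55, held 41 of the 105 Pdgfd UMIs of its class and reached 64.4 CPM pooled. By library, Ifnar1-/- F2 held 53 of those 105 UMIs, in 13 nuclei, and stood at 8.67 CPM against 0.139 to 2.08 CPM in the others. The GABAergic mean was 2.01 CPM with that library and 1.06 CPM without it. In glutamatergic neurons, the class in which it passed the filter, the log2 difference between genotypes was 0.42 (SE 0.26).

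Each receptor was high in few classes. Pdgfra, the defining receptor of OPCs, was at 911, 1395, 1291 and 1301 CPM in OPCs of Wt F1, F2, M1 and M2 and at 1308, 1200, 1395 and 1095 CPM in those of Ifnar1-/- mice. The genotypes overlapped throughout, and the lowest value, Wt F1, rests on 15 nuclei. The means were 1225 ± 214 and 1249 ± 130 CPM, and the log2 difference was 0.02 (SE 0.17). A Pdgfra UMI was found in 91.6% of OPCs, against 0.296% of oligodendrocytes and 0.457% of glutamatergic neurons (median depths of 2349, 2055 and 8851 UMIs). In newly formed oligodendrocytes the mean was 8.76 CPM (2.00 CPM without Wt M1), and 5 of the 7 libraries used had none. The vascular and leptomeningeal nuclei had 112 CPM pooled. Pdgfrb, the pericyte receptor, was at 202 CPM pooled in the vascular and leptomeningeal nuclei and at 106 ± 28.1 CPM in astrocytes (n = 6), where 25.9% of nuclei held a UMI. No other class exceeded 1.71 CPM, and no Pdgfrb UMI was found in 453 OPCs. A floor of 3 nuclei corresponds to a share of 0.662% of OPCs, and the upper end of the 95% exact interval was 0.811%. With endothelial cells and pericytes not resolved as classes of their own, ligand values in those cells were not measured here.

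**Figure D3:**
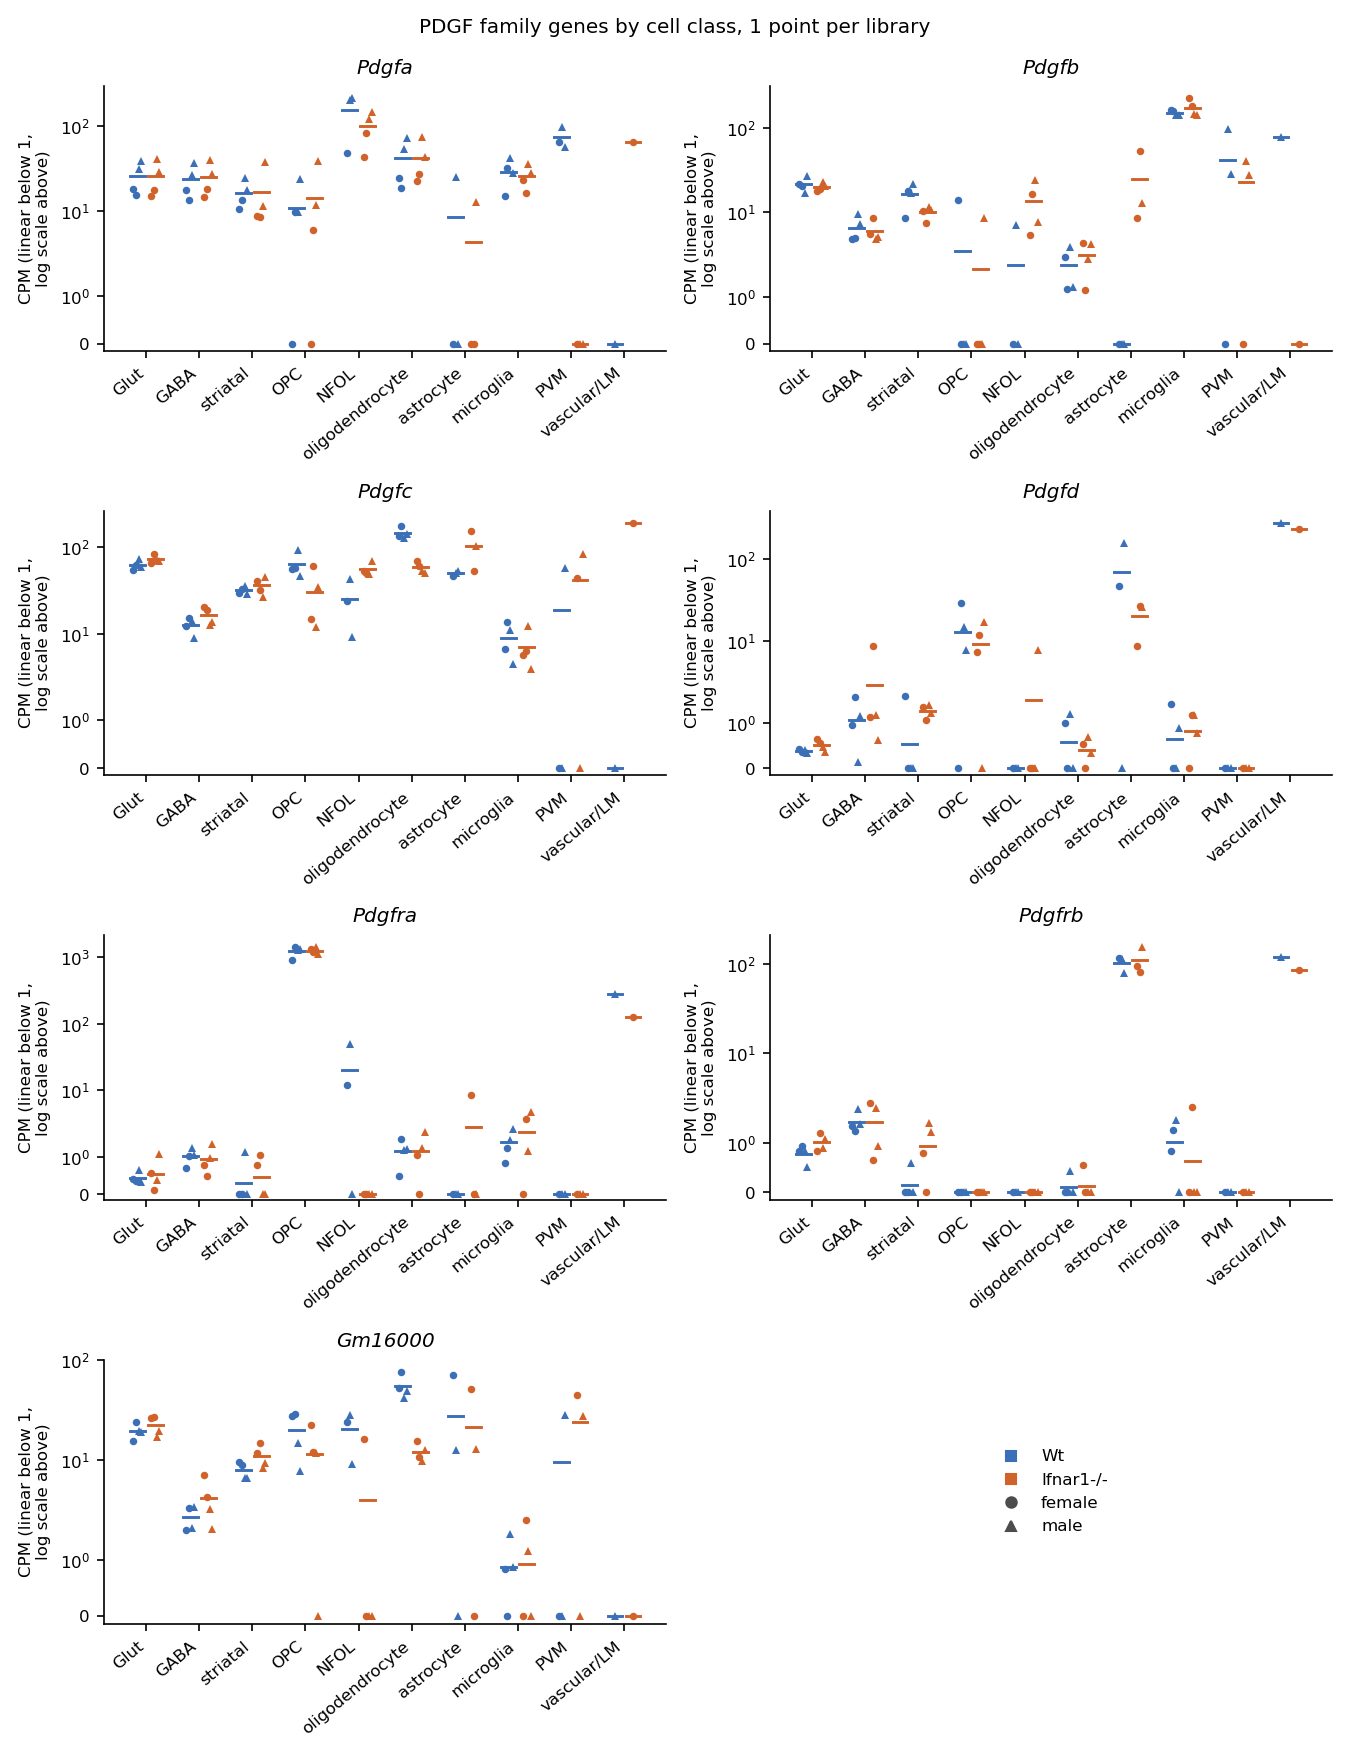
CPM of the 7 members in 10 cell classes (x axis), 1 point per library with at least 10 nuclei of the class, coloured by genotype with the shape giving the sex and lines at the genotype means (Glut, glutamatergic; GABA, GABAergic; NFOL, newly formed oligodendrocyte; PVM, perivascular macrophage; LM, leptomeningeal); the y axis is linear below 1 CPM and logarithmic above. Pdgfra stands at 911 to 1395 CPM in OPCs, Pdgfb at 142 to 223 CPM in microglia, and Pdgfc and Gm16000 are spread over oligodendrocytes, neurons and astrocytes.

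In the order of the class means, Pdgfc ran from oligodendrocytes (101 ± 48.2 CPM over both genotypes) through astrocytes (76.6), glutamatergic neurons (67.2), OPCs (46.6), newly formed oligodendrocytes (42.2), striatal neurons (33.9) and perivascular macrophages (30.5) to GABAergic neurons (14.4) and microglia (7.98). The first place of oligodendrocytes held in Wt libraries (144 CPM) but not in Ifnar1-/- libraries. There they were at 58.2 CPM, below glutamatergic neurons (72.4) and astrocytes (103). These oligodendrocyte values chose the set. The exact paired permutation test over mice (two-sided) compared each class with the next in the order over both genotypes, in 56 pairs over the 7 members. With 8 mice its smallest possible p is 0.00781, and after Benjamini-Hochberg adjustment over the 56 pairs none passed 0.05, the smallest adjusted p being 0.0875. An adjusted p above 0.05 in a test with so few mice does not show that neighbouring classes were alike, and 13 pairs had an unadjusted p below 0.05. In 5 pairs the sign was the same in all 8 mice: Pdgfb in glutamatergic above striatal neurons, Pdgfc and Gm16000 in GABAergic neurons above microglia, Gm16000 in striatal above GABAergic neurons, and Pdgfra in GABAergic above glutamatergic neurons, the last at levels of 1.01 and 0.486 CPM. Other pairs had 1 sign in every mouse but fewer mice, which limits the exact p further, to 0.0156 with 7 mice and 0.0312 with 6. With 7 mice these were Pdgfra in OPCs above newly formed oligodendrocytes (1237 against 8.76 CPM) and Pdgfa in newly formed oligodendrocytes above oligodendrocytes (121 against 41.6 CPM). With 6 mice they were Pdgfrb in astrocytes above GABAergic neurons (106 against 1.71 CPM), Pdgfb in microglia above perivascular macrophages (162 against 32.1 CPM) and Pdgfd in glutamatergic neurons above perivascular macrophages (0.443 CPM against 0).

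Among the neuronal subclasses that were named, Pdgfc was highest in L6b neurons, the deepest cortical layer, at 167 ± 36.2 CPM (SD, n = 8). Neuronal clusters without a subclass name were left out of this order. Pooled over libraries, glutamatergic clusters 22 (887 nuclei) and 52 (101 nuclei) had 187 and 222 CPM, above L6b neurons at 164 CPM. Gm16000 was at 60.4 and 57.5 CPM in these clusters, against 49.3 CPM pooled in L6b neurons. L2/3 IT neurons, which project within the telencephalon, had 78.3 ± 4.65 CPM, L5 ET neurons, which project out of it, 66.5 ± 9.45 CPM, and claustrum or Car3 neurons 56.9 ± 18.8 CPM. Lower values were measured in L6 CT (32.0 ± 10.8), L5 IT (20.7 ± 8.51), L5/6 NP (27.3) and L4 IT neurons (10.8 ± 3.47). Among interneurons, Sst cells had 19.3 ± 6.79, Vip cells 12.0 ± 3.53, Pvalb cells 10.1 ± 5.01 and Lamp5 cells 3.35 ± 2.57 CPM. Gm16000 had the same leading subclasses, with 50.7 ± 15.3 CPM in L6b, 25.7 ± 5.02 in L2/3 IT and 20.3 ± 5.93 in L5 ET neurons, and 1.76 ± 0.735 CPM in L4 IT neurons. The pattern of Pdgfa was different, with its highest mean among the named subclasses in Vip interneurons (40.9 CPM) and its lowest in L6b neurons (9.57 CPM). These orders are descriptions and were not tested.

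**Figure D4:**
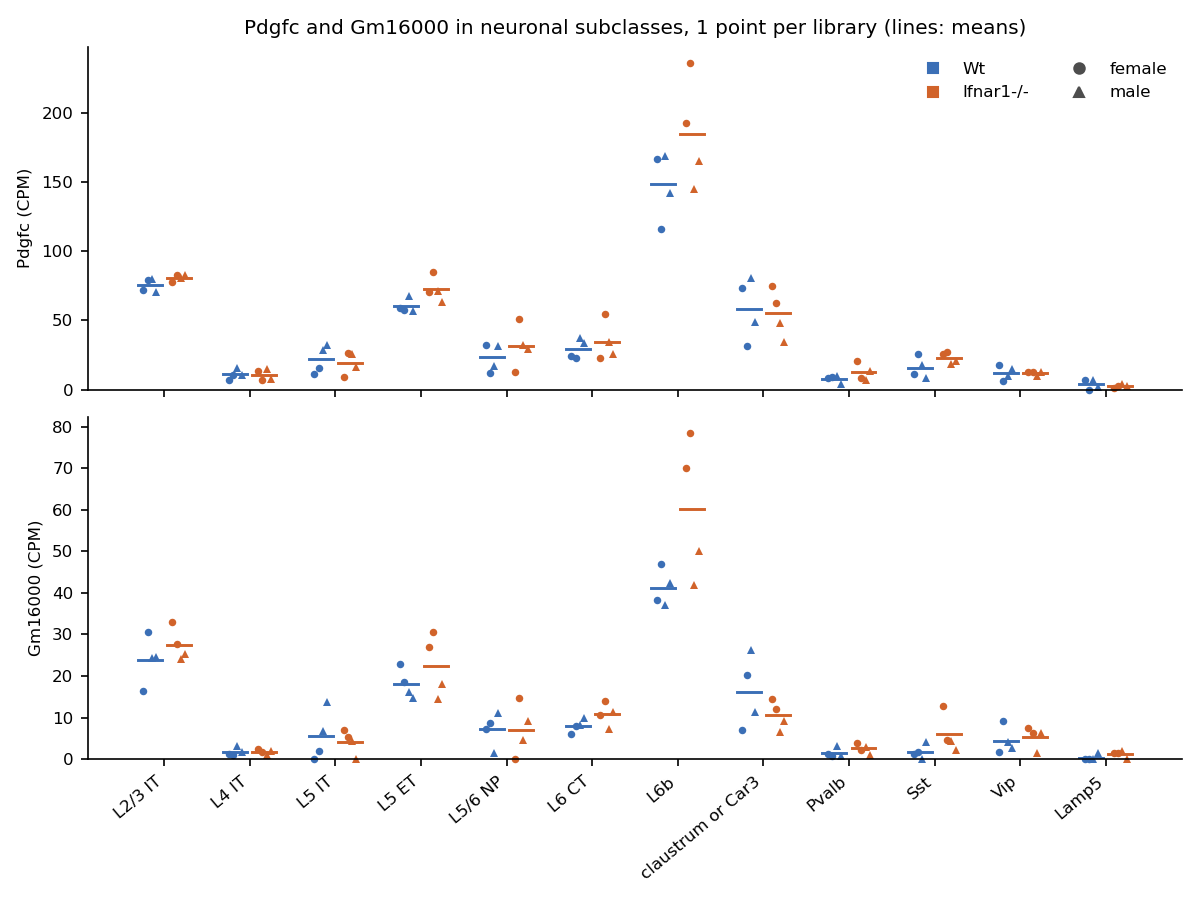
Pdgfc (upper panel) and Gm16000 (lower panel) in CPM in 12 neuronal subclasses (x axis), 1 point per library with lines at the means. L6b neurons stand highest for both, at mean levels of 167 CPM for Pdgfc and 50.7 CPM for Gm16000.

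Sex was not used to choose the set, and Pdgfa differed by sex. In glutamatergic neurons Pdgfa was at 18.2 and 15.2 CPM in the Wt females, 14.9 and 17.7 CPM in the Ifnar1-/- females, 30.6 and 38.0 CPM in the Wt males and 41.1 and 28.7 CPM in the Ifnar1-/- males. All 4 males were above all 4 females, in both genotypes. The share of all genes whose sexes do not overlap is not given for this or any other class. The log2 difference was 1.01 (SE 0.13; edgeR with genotype as a covariate, adjusted p = 5.35e-04). In oligodendrocytes the female libraries had 24.3 and 18.6 (Wt) and 22.4 and 26.8 CPM (Ifnar1-/-), and the male libraries had 52.5 and 71.4 (Wt) and 73.6 and 43.3 CPM (Ifnar1-/-). The sexes again did not overlap, with means of 23.0 ± 3.45 and 60.2 ± 14.7 CPM (log2 difference 1.26, SE 0.20; edgeR adjusted p = 9.98e-04). GABAergic neurons showed means of 15.9 ± 2.34 and 32.3 ± 6.56 CPM (log2 difference 0.95, SE 0.16; edgeR adjusted p = 0.00267). In striatal neurons the means were 10.3 ± 2.31 and 22.5 ± 11.0 CPM (log2 difference 1.10, SE 0.35; edgeR adjusted p = 0.0486), and here the call rested on single libraries. It was lost when any library other than Ifnar1-/- M1 was left out, with adjusted p from 0.0625 to 0.265 and a log2 difference of 0.61 without Ifnar1-/- M2.

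The difference did not pass the test in newly formed oligodendrocytes and microglia. The former had 57.7 ± 21.8 CPM in 3 female and 168 ± 41.9 CPM in 4 male libraries (log2 difference 1.51, SE 0.41; edgeR adjusted p = 0.0699), again with no overlap. Leaving out Ifnar1-/- F2 brought that adjusted p to 0.0275. The latter had 21.4 ± 7.54 and 33.1 ± 6.89 CPM (log2 difference 0.66, SE 0.29; edgeR adjusted p = 0.128). In each of the 12 neuronal subclasses the male mean was above the female mean, with 55.8 against 26.0 CPM in Vip interneurons, where Pdgfa was highest, and 13.5 against 5.67 CPM in L6b neurons, where it was lowest.

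These calls stand against a high background, since genes called higher in males made up 16.6% of all tested genes in the glutamatergic class, 14.3% in the GABAergic, 6.90% in the striatal and 13.3% in the oligodendrocyte class. Of the 21 member and class pairs tested for sex, 4 were called, all for Pdgfa. In either direction, 30.3%, 24.6%, 12.4% and 22.8% of genes were called in the same 4 classes, and 1.68% in newly formed oligodendrocytes, 3.57% in OPCs and 19.7% in microglia. The libraries of the sexes also differed in their median share of mitochondrial UMIs, which was 0.16% to 0.389% in females and 0.387% to 1.13% in males. Its part in the Pdgfa difference was not tested. Pdgfc was lower in males at the edge of the threshold, with a log2 difference of -0.36 (SE 0.13; edgeR adjusted p = 0.0504) in oligodendrocytes and of -0.49 (SE 0.17; edgeR adjusted p = 0.0551) in GABAergic neurons. Gm16000 in oligodendrocytes had a log2 difference of -0.51 (SE 0.20; edgeR adjusted p = 0.0810), and Pdgfb in microglia one of -0.32 (SE 0.13; edgeR adjusted p = 0.0984). Single libraries decided some of these: Pdgfc was called in oligodendrocytes without Wt F1 or Wt M2 (edgeR adjusted p = 0.0261 and 0.0445) and in GABAergic neurons without Wt F1 or Wt M1 (edgeR adjusted p = 0.0422 and 0.0191). Gm16000 in glutamatergic neurons (log2 difference -0.34, SE 0.15; edgeR adjusted p = 0.122) was called without Wt F1, at -0.50 (edgeR adjusted p = 0.0108). No member showed a genotype difference that varied with sex: in 18 tests of the interaction with edgeR none was called, as was the case for 0% of all genes in those classes, and 1 had an unadjusted p below 0.05, Pdgfb in GABAergic neurons (log2 -1.26, edgeR adjusted p = 1.000). The interaction was fitted with edgeR alone.

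**Figure D5:**
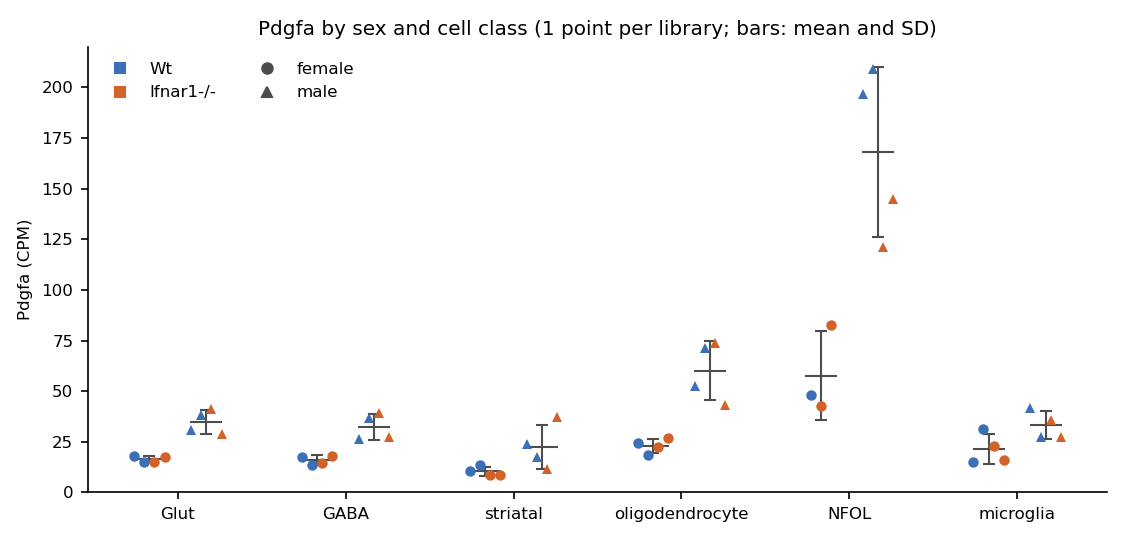
Pdgfa in CPM by sex in 6 cell classes (x axis), 1 point per library, with bars giving the mean and SD of each sex (Glut, glutamatergic; GABA, GABAergic; NFOL, newly formed oligodendrocyte). All male libraries lie above all female libraries in glutamatergic neurons (28.7 to 41.1 against 14.9 to 18.2 CPM) and in oligodendrocytes (43.3 to 73.6 against 18.6 to 26.8 CPM). The share of all genes separated in this way is not given.

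Genes that act with PDGFs did not pass the genotype test in any class. The 54 genes examined fell into 6 lists: proteases that activate the latent ligands (such as Plat and Furin), co-receptors and binding proteins (such as Nrp1, Lrp1 and Sparc), proximal signalling proteins (such as Plcg1 and Pik3r1), negative regulators (such as Cbl), immediate early targets (such as Fos and Egr1), and the related VEGF ligands and type III receptors. The glutamatergic class had 51 of them tested, the GABAergic class 49, oligodendrocytes 41, microglia 34, striatal neurons 31, OPCs 16, newly formed oligodendrocytes 8, astrocytes 4 and perivascular macrophages 3. Neither edgeR nor DESeq2 called any. An unadjusted p below 0.05 with edgeR was reached by 4, at an adjusted p of 1.000 each: Pdgfrl, a PDGF receptor-like gene (log2 difference 0.63), and Vegfc, a growth factor of lymphatic vessels (0.58), in glutamatergic neurons, Pcsk5, a proprotein convertase, in striatal neurons (-0.40), and Nrp2, a co-receptor, in oligodendrocytes (0.46). In oligodendrocytes the median log2 difference was -0.19 over the 5 proteases tested, 0.22 over 6 co-receptors and binding proteins, -0.05 over 17 proximal signalling genes, -0.01 over 6 negative regulators, 0.02 over 3 immediate early targets and -0.16 over 4 VEGF and receptor genes, beside 0.00 over all genes tested.

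Around Pdgfc, 41 genes lie within 2 Mb, and none of those tested was called by edgeR in any class. Before adjustment, the edgeR p was below 0.05 for 2 of them higher and 4 lower in Ifnar1-/- glutamatergic neurons, of 27 tested. In GABAergic neurons this held for 2 higher and 2 lower of 20 tested. Over all genes it held for 316 of 18469 and 250 of 15020 in these classes. In oligodendrocytes and microglia it held for 2 of 15 and 2 of 13, all higher, against 213 of 11070 and 148 of 9560 genes. In striatal neurons it held for 1 higher and 1 lower of 11 tested, and in newly formed oligodendrocytes for 1 of 5, higher. Over all genes it held for 199 of 9004 and 125 of 2260 in these 2 classes. It held for 0 of 4 neighbours in OPCs and for 0 of 1 in astrocytes. In oligodendrocytes 15 were tested, with a median log2 difference of 0.05. Glrb, a glycine receptor subunit gene 122.8 kb from Pdgfc, had 80.4, 86.3, 111 and 123 CPM in Wt F1, F2, M1 and M2 and 118, 111, 159 and 169 CPM in the Ifnar1-/- libraries. It was higher on average in Ifnar1-/- oligodendrocytes, in the direction opposite to Pdgfc, but with overlap and without passing the test (log2 difference 0.48, SE 0.16; edgeR adjusted p = 1.000). Tmem144, 1183.6 kb away, had 46.4 to 59.6 CPM in Wt and 33.8 to 49.4 CPM in Ifnar1-/- libraries, and Ctso 44.7 to 58.3 and 46.1 to 58.9 CPM. The log2 difference of Tmem144 was 0.66 (SE 0.18) in glutamatergic neurons, 1.07 (SE 0.40) in GABAergic neurons and 0.69 (SE 0.25) in microglia. None of these passed the test. In microglia Rxfp1, the relaxin receptor gene 1298.5 kb away, had a log2 difference of 2.58 (SE 0.55; edgeR adjusted p = 0.344), and in GABAergic neurons the non-coding 4921511C10Rik had -0.83 (SE 0.18; edgeR adjusted p = 0.960). Both passed the threshold with DESeq2, at adjusted p of 0.0133 and 0.0438, and Rxfp1 also did so with the replicate label as a block (edgeR adjusted p = 0.0225).

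Across the 10 class means on the log2 scale, genes with the profile nearest to each member were found among 15046 genes by Pearson's r, as a description over points from the same 8 libraries. The nearest to Pdgfc were Gpm6b (0.936), Srebf2 (0.898) and Cdh10 (0.890), and Gm16000 ranked 54 in that order (0.796). Gm16000 was nearest to 9430065F17Rik (0.864), Cenpn (0.845) and Pgap1 (0.838). Pdgfa was nearest to Rnaseh2c (0.937), Sart1 (0.919) and Gpatch4 (0.918), and Pdgfb to Arpc2 (0.962), Lyzl4 (0.957) and C130050O18Rik (0.923). Pdgfd was nearest to Alpl (0.991), Gm33756 (0.969) and Sod3 (0.965). For the receptors these were B3gnt7 (0.965), Fbln7 (0.945) and Gucy1b2 (0.927) with Pdgfra, and Trp63 (0.983), Echdc3 (0.982) and Fzd2 (0.981) with Pdgfrb.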

How the data were processed

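The authors deposited UMI counts per gene and nucleus for each library, from 3′ libraries per the labels. The submitters' processing notes name Cell Ranger, Seurat 3.1.5 and the mm10 genome, and the study's methods describe a modified 10x Genomics reference in which whole transcripts served as exons, so unspliced RNA was counted. The strand setting is not given in the sources used here. The deposited gene names and barcodes served as text keys, and no value column was left unmapped. Nuclei with 200 to 6000 detected genes, at least 1000 UMIs and at most 10% mitochondrial UMIs were kept, doublets were called per library with Scrublet and removed, and the rest were clustered in scanpy 1.11.5 (Leiden, resolution 2, 40 components) without the members and named from marker lists. UMIs were summed per library and class, and libraries with under 10 nuclei of a class were left out, as were classes with fewer than 3 libraries per genotype. Counts were tested on all genes with edgeR 4.0.16 (TMM, filterByExpr, quasi-likelihood test, Benjamini-Hochberg adjustment over the genes of the class), which was tested on simulated data. DESeq2 1.42.0 was an alternative, as were RLE size factors, no count filter, sex as a covariate, a replicate block, leaving out each library, keeping doublets, no gene limit and dropping shared barcodes. Class levels were compared on log2(CPM + 1).

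The members and gene lists were chosen with earlier results of these data known. Named genes were the members, called pathway genes and neighbours of Pdgfc, and the 3 genes nearest to each member by profile. Other genes were named after their values were seen. Same-labelled libraries (F1, F2, M1 and M2) of the 2 genotypes deviated together in all 16 checks over 4 classes (correlation 0.16 to 0.76), although only 8 matched their own label best and the label also gives the sex. The pairing comes from these correlations and not from a shared litter or batch. Nothing in the labels but genotype, sex and number tells the mice apart, as age and strain were shared by all. The p-values thus measure the spread between these libraries. Intervals and floors cover counting error only.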

Additional observations from a re-analysis of the deposited data

Results flagged for a closer look

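Pdgfa in striatal projection neurons of Ifnar1-/- M2 was at 37.1 CPM, far from the other 3 Ifnar1-/- libraries at 8.54, 8.68 and 11.5 CPM. The gap to the nearest library was 0.896 of the range of the group, above Dixon's 95% critical value for 4 libraries. Among 41 groups of 4 libraries examined, 1 had such a library, and chance gives about 1 in 20. This library held 28 Pdgfa UMIs in 103 striatal nuclei, and without it the sex difference of Pdgfa in that class fell from 1.10 to 0.61 on the log2 scale.

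The genotype difference of Pdgfc had opposite signs in different glial classes among libraries with at least 10 nuclei. Every such Ifnar1-/- library was lower in oligodendrocytes, whose values chose the set, and higher in newly formed oligodendrocytes and astrocytes. The share of all genes separated in this way is not given for the latter classes. In OPCs the mean was 63.2 CPM in Wt and 30.1 CPM in Ifnar1-/- mice, from 58 UMIs and with overlap. Microglia had 8.92 and 7.04 CPM, also with overlap. The Ifnar1-/- mean minus the Wt mean was -85.8 CPM in oligodendrocytes, 30.0 CPM in newly formed oligodendrocytes and 53.1 CPM in astrocytes. Whether the classes differ in this was not tested. Newly formed oligodendrocytes and astrocytes rest on 37 and 39 Pdgfc UMIs in all, with 1 to 18 in a library that was used. In astrocytes the nearest libraries of the genotypes were at 53.3 and 52.8 CPM from 2 UMIs each. In both of these classes the genotypes overlapped once the libraries with fewer nuclei were counted (Wt F1 at 110 CPM in newly formed oligodendrocytes, Wt F2 at 160 CPM in astrocytes).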

How the results depend on the processing

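Leaving out each library in turn kept the log2 difference of Pdgfc in oligodendrocytes between -1.42 and -1.17 and that of Gm16000 between -2.30 and -1.91. The oligodendrocyte values chose the set, so these ranges are a description and not added support. The count of members called by genotype outside oligodendrocytes was 0 under every alternative, as were the counts of pathway genes called and of interactions called. The count of neighbouring classes separated was also 0, but with 6 to 8 mice the exact test has little room to pass the adjusted threshold, so that count says nothing about stability. The pairing behind the replicate block is uncertain, as only 8 of 16 checks matched their own label best and the label also gives the sex. The block changed no call of a member (Pdgfc in glutamatergic neurons had an unadjusted p of 0.0291 and an adjusted p of 0.963 in edgeR). It moved the count of genes near Pdgfc called from 0 to 1 (Rxfp1 in microglia). That count was 1 with no filter on low counts (Rxfp1 again) and 2 with DESeq2. The count of sex differences called, 4, became 5 with RLE size factors, 6 with no filter, and 3 to 6 when a library was left out. With RLE size factors Pdgfa in striatal neurons moved to an adjusted p of 0.0505, and Pdgfc lower in males was called in oligodendrocytes (0.0438) and in GABAergic neurons (0.0492, and 0.0433 with no filter), all in edgeR. The causes of these changes were not tested. With all libraries kept, values that changed sign were near 0: Pdgfrb by genotype in GABAergic neurons (0.00) became -0.00 with DESeq2 and without shared barcodes, an alternative chosen after seeing the data, -0.01 with no filter or with sex as a covariate, -0.02 with no gene limit, -0.06 with the block and -0.09 with doublets kept. With no filter, Pdgfc by sex in glutamatergic neurons became 0.00 and Pdgfra by sex in OPCs -0.02. When a library was left out, the values that changed sign ranged as follows. By genotype, Pdgfa ranged from -0.28 to 0.26 in glutamatergic, -0.20 to 0.38 in GABAergic and -0.80 to 0.24 in striatal neurons and from -0.34 to 0.09 in microglia, Pdgfb from -0.20 to 0.00 in glutamatergic and -0.35 to 0.07 in GABAergic neurons, Pdgfra from -0.28 to 0.65 in glutamatergic neurons and -0.09 to 0.11 in OPCs, and Pdgfrb from -0.30 to 0.26 in GABAergic neurons. By sex, Pdgfb ranged from -0.02 to 0.23 in glutamatergic and -0.13 to 0.35 in GABAergic neurons, Pdgfc from -0.10 to 0.07 in glutamatergic and -0.25 to 0.08 in striatal neurons, Pdgfrb from -0.07 to 0.65 in GABAergic neurons and Pdgfra from -0.11 to 0.13 in OPCs. Astrocytes, vascular nuclei and OPCs had too few nuclei to show small differences, and 4 members in oligodendrocytes had too few UMIs to be tested.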
